A study of Mus musculus with 42 samples.

Results

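A set of 32 genes of the sarcomere, the contractile unit of skeletal muscle, and of the calcium release and energy systems that serve it was followed among 26811 genes counted in 42 MC38 tumors. MC38 is a mouse colon carcinoma line. It is not a muscle tumor, and it was injected under the skin, which in the mouse lies over thin sheets of skeletal muscle. The members are a named list of skeletal muscle genes, chosen by name after their expression levels in these same tumors, by treatment group and replicate number, had been seen. Levels and differences along both lines are therefore given as descriptions, and no p-value is printed for a member. Of the 32 genes, 31 passed the filter on low counts that left 16932 genes for testing, and Sln, which encodes a small inhibitor of the calcium pump, did not.

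Female F1 mice of a CC075/UncJ by C57BL/6J cross (CC75xB6), 8 to 12 weeks old, carried the tumors. The groups were isotype control (n = 5), aPD1 (n = 6), aPD1 + aGMCSF (n = 9), aPD1 + aIL2RB (n = 11) and aPD1 + aGMCSF + aIL2RB (n = 11), with 1 tumor per profile. Blocking antibody, 100 µg of aGMCSF, 200 µg of aIL2RB or both, was given repeatedly from engraftment until a tumor measured 75 to 110 mm3, and groups without a blocking antibody received its isotype. A single injection of 200 µg of aPD1, or of its isotype in the isotype control group, followed, and tumors were collected 48 h later. The design allowed the effect of aPD1 on a tumor to be set against the same treatment under blockade of either cytokine pathway. Whole tumors were profiled, so fewer muscle fibers in a sample and less RNA per fiber cannot be told apart.

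In skeletal muscle, myosin thick filaments pull on actin thin filaments, which troponin opens to myosin when calcium is bound. Titin and nebulin set filament lengths, Z-discs anchor the thin filaments and the M-band holds the thick ones. A voltage sensor in the membrane opens the ryanodine receptor to release calcium, a pump returns it to the store, and creatine kinase, glycogen phosphorylase and glycolytic enzymes supply the energy. Fast fibers differ by the myosin heavy chain they carry, with Myh2 in type IIa, Myh1 in type IIx and Myh4 in type IIb fibers, and oxidative fibers hold more of the oxygen carrier myoglobin.

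Total counts per tumor ranged from 7155486 to 24101674. A count of 0 in a tumor allowed a level of up to 0.124 to 0.419 CPM (3 counts over its total), where CPM is the count scaled to library size after TMM correction. This limit and the counting intervals it stands for cover counting error only. The tumors also parted along their replicate numbers in earlier results, and the same division is used here. The lower-numbered tumors are isotype control replicates 1 and 2, aPD1 replicates 1 to 3, aPD1 + aGMCSF replicates 1 to 5, and replicates 1 to 6 of both aIL2RB groups (22 tumors), and the other 20 are called higher-numbered. The labels give no meaning to this division. Of all genes tested, 25.1% were called between the 2 sets with the groups in the model (edgeR, adjusted p under 0.05).

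The summed level of the 32 genes varied widely within the groups given aPD1. Isotype control tumors held 123, 66.0, 39.5, 31.7 and 35.5 CPM in replicates 1 to 5. The aPD1 tumors held 335, 46.9, 1735, 37.7, 415 and 866 CPM in replicates 1 to 6, a 46.0-fold range. Thus aPD1 tumors lay both among the isotype control tumors and far above them. In aPD1 + aGMCSF tumors the sum ran from 44.0 to 692 CPM with a median of 89.1, and in aPD1 + aIL2RB tumors from 41.9 to 278 CPM with a median of 141. In aPD1 + aGMCSF + aIL2RB tumors it ran from 38.9 to 658 CPM with a median of 226. Every pair of groups overlapped in this sum, and the group with the highest median, aPD1 at 375 CPM, also held 1 of the 4 lowest tumors of the series.

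**Figure D1:**
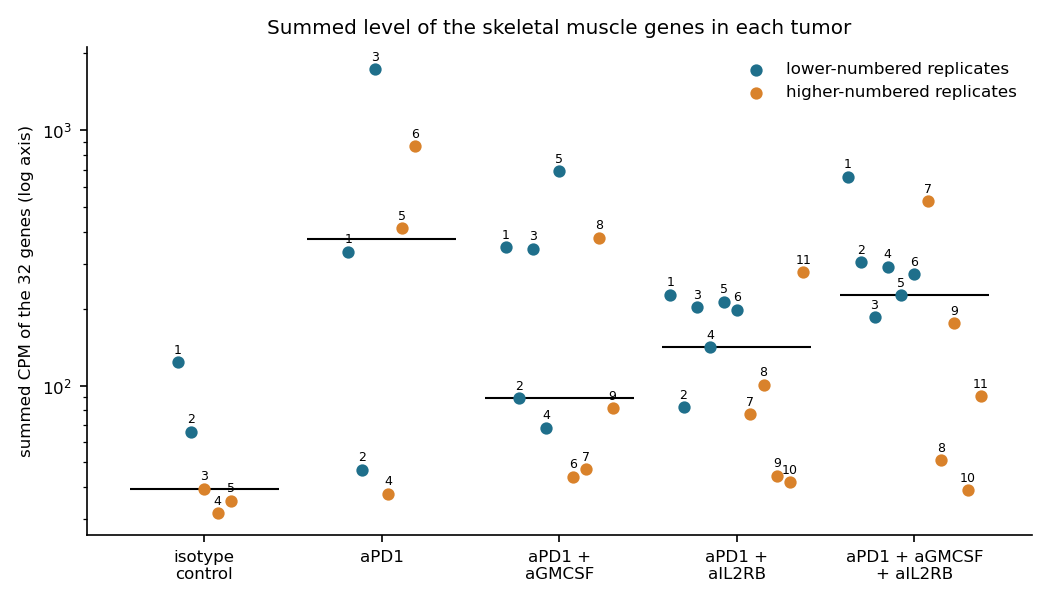
Summed CPM of the 32 skeletal muscle genes (vertical, log axis) in each of 42 tumors by treatment group (horizontal), with replicate numbers beside the points, colors for lower- and higher-numbered replicates and lines for group medians. The aPD1 tumors span 37.7 to 1735 CPM, and isotype control tumors 31.7 to 123 CPM.

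A muscle score was taken as the mean over the 31 tested genes of log2 CPM standardized per gene over the 42 tumors. Its mean was −0.85 ± 0.52 (SD, n = 5) in isotype control, 0.54 ± 1.34 (n = 6) in aPD1, 0.034 ± 0.854 (n = 9) in aPD1 + aGMCSF, −0.095 ± 0.488 (n = 11) in aPD1 + aIL2RB and 0.16 ± 0.74 (n = 11) in aPD1 + aGMCSF + aIL2RB tumors. The aPD1 group had the highest mean and the largest SD, and the isotype control group the lowest mean. The aPD1 + aGMCSF group stood above the aPD1 + aIL2RB group in mean score but below it in median sum. In aPD1 tumors the score reached from −1.19 in replicate 4 to 2.23 in replicate 3. The latter tumor stood at the top of the series for 31 of the 32 genes, all but Cox6a2.

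Most members moved together across tumors. Pearson's r of a gene's log2 CPM with the mean of the other members was over 0.8 for 25 members, and among the 465 pairs of tested members r had a median of 0.80. These correlations run over tumors that share groups and replicate sets and are a description. The genes closest to the rest were Mylpf, the fast regulatory light chain (r = 0.96), Atp2a1, the calcium pump of fast fibers (0.96), and Tnnt3, fast troponin T (0.95). At the other end stood Cox6a2, the muscle and heart form of a cytochrome c oxidase subunit, with r of −0.22.

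Cox6a2 and Eno3 were also measured in tumors almost without the other members. In 9 tumors, all higher-numbered, the other 30 genes summed to 10.6 to 23.9 CPM, below every lower-numbered tumor, where the lowest sum was 31.8 CPM. In these 9 tumors Acta1, the skeletal actin, had between 0 and 35 counts. Cox6a2 there lay at 4.95 to 11.1 CPM and Eno3, the muscle enolase, at 10.9 to 16.9 CPM. In the other 33 tumors they lay at 2.08 to 12.1 and at 8.90 to 32.9 CPM. Eno3 nevertheless had an r of 0.57 with the mean of the other members and its highest level in aPD1 replicate 3.

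**Figure D2:**
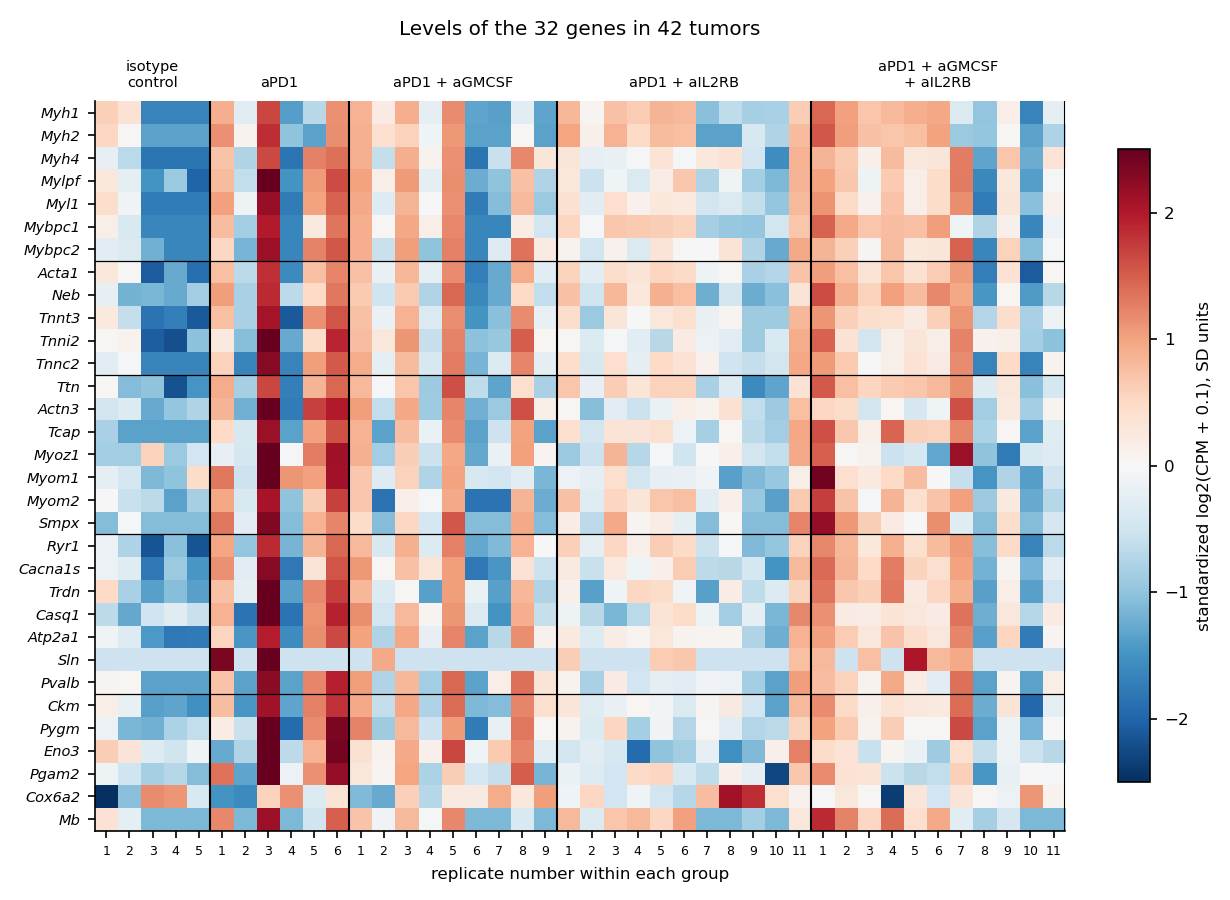
Standardized log2(CPM + 0.1) of the 32 genes (rows, by role) in 42 tumors (columns, by group and replicate number), in SD units over the tumors. The aPD1 replicate 3 column is the highest in 31 of 32 rows, and Cox6a2 is the exception.

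The thick filament genes beside the myosin heavy chains were the light chains Mylpf and Myl1 and the myosin-binding proteins Mybpc1 and Mybpc2, with means of 3.59 to 4.68 CPM. Myl1, the fast essential light chain, was at 0 in 6 tumors. Its median was 7.84 CPM (0 to 50.2) in aPD1, 1.51 CPM (0 to 9.68) in aPD1 + aGMCSF, 1.80 CPM (0.24 to 5.73) in aPD1 + aIL2RB and 2.49 CPM (0 to 10.1) in aPD1 + aGMCSF + aIL2RB tumors, and in isotype control tumors it ran from 0 to 3.07 CPM. For Myl1 the aPD1 range enclosed that of every other group. Myh4, the most abundant by CPM of this role (mean 26.02), lay at 3.49, 1.19, 0, 0 and 0 CPM in isotype control replicates 1 to 5. Its median was 60.4 CPM (0 to 222) in aPD1, 11.0 CPM (0 to 80.2) in aPD1 + aGMCSF, 5.38 CPM (0.082 to 39.9) in aPD1 + aIL2RB and 12.1 CPM (0.21 to 98.3) in aPD1 + aGMCSF + aIL2RB tumors.

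Acta1, on chromosome 8 (123891769 to 123894751, GRCm38), had the highest mean level per length of the 32 genes, 14.8 CPM per kb of exon. Its level was 11.4, 6.80, 0, 0.42 and 0.047 CPM in isotype control replicates 1 to 5. In aPD1 tumors it ran from 0.17 to 255 CPM with a median of 28.9. The aPD1 group therefore held both near-absence and the highest level of skeletal actin. The median was 4.31 CPM (0.11 to 69.3) in aPD1 + aGMCSF, 12.2 CPM (1.19 to 26.8) in aPD1 + aIL2RB and 13.8 CPM (0 to 53.9) in aPD1 + aGMCSF + aIL2RB tumors. Values of all 5 groups overlapped. The other thin filament genes were Neb (nebulin), Tnnt3, Tnni2 and Tnnc2, the last 3 encoding the fast troponin subunits T, I and C, with mean levels of 2.81 to 16.2 CPM. Neb was counted at 10 or more in all 42 tumors.

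Ttn, which encodes the giant spring titin on chromosome 2 (76703980 to 76982547), had the highest mean CPM, 62.5, but only 0.54 CPM per kb across its 116825 bases of exon. In isotype control replicates 1 to 5 it was 35.9, 8.99, 10.1, 2.32 and 5.65 CPM. In aPD1 tumors it ran from 4.13 to 260 CPM with a median of 102. Its medians were 32.5 CPM (6.85 to 243) in aPD1 + aGMCSF, 49.1 CPM (4.84 to 80.0) in aPD1 + aIL2RB and 76.8 CPM (9.61 to 221) in aPD1 + aGMCSF + aIL2RB tumors. Ttn was above 0 in every tumor. The Z-disc genes Actn3 (the fast-fiber alpha-actinin), Tcap (telethonin) and Myoz1, the M-band genes Myom1 and Myom2, and Smpx had means of 0.40 to 4.45 CPM. Myom1 was counted in every tumor, at 1.18 to 15.7 CPM, whereas Smpx was at 0 in 14 tumors and Tcap in 9.

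Among the calcium handling genes Atp2a1, on chromosome 7 (126445858 to 126463108), was the most abundant at a mean of 14.9 CPM. It was 3.59, 2.47, 0.25, 0.084 and 0.093 CPM in isotype control replicates 1 to 5. In aPD1 tumors it ran from 0.17 to 146 CPM with a median of 23.7. The medians were 5.34 CPM (0.32 to 38.7) in aPD1 + aGMCSF, 5.03 CPM (0.41 to 20.7) in aPD1 + aIL2RB and 9.64 CPM (0.10 to 39.9) in aPD1 + aGMCSF + aIL2RB tumors. Again the aPD1 group was the widest. Ryr1, the calcium release channel, averaged 5.69 CPM. Its voltage sensor Cacna1s, the anchoring protein Trdn, the store protein Casq1 and the buffer Pvalb averaged 1.04 to 1.44 CPM. Sln was at 0 in 30 tumors and reached 10 counts in 1, aPD1 replicate 3 with 24.

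The energy genes had unlike ranges. Ckm, muscle creatine kinase, ran from 0 to 54.8 CPM, and Pygm, muscle glycogen phosphorylase, from 0.26 to 23.4 CPM. Pgam2, the muscle phosphoglycerate mutase, reached 7.09 CPM. Eno3 lay at 16.7, 15.6, 13.3, 12.7 and 13.97 CPM in isotype control replicates 1 to 5. Its medians in the other groups were 15.001 CPM (10.5 to 32.9) in aPD1, 15.8 CPM (13.4 to 21.6) in aPD1 + aGMCSF, 12.8 CPM (8.90 to 19.6) in aPD1 + aIL2RB and 13.8 CPM (11.5 to 16.1) in aPD1 + aGMCSF + aIL2RB tumors. No tumor was below 8.90 CPM of Eno3, and aPD1 replicate 3 was the highest. Mb, myoglobin, was at 0 in 13 tumors and reached 12.4 CPM.

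Between aPD1 and isotype control, 26 of 31 tested members were called higher in aPD1 and none lower, where 8.71% of all genes were called, 6.17% higher and 2.54% lower (edgeR quasi-likelihood test, adjusted p under 0.05). The median log2 fold change was 3.83 over the members and −0.0023 over all genes tested. By role, all 5 thin filament genes, all 7 titin, Z-disc and M-band genes and all 6 tested calcium handling genes were called, as were 5 of 7 thick filament and 3 of 6 energy genes. The log2 fold change (± SE) was 4.12 ± 1.25 for Acta1, 3.18 ± 0.91 for Ttn, 5.16 ± 1.27 for Atp2a1 and 6.38 ± 1.499 for Myh4. It was 2.96 ± 1.36 for Myh1, 3.53 ± 1.39 for Myh2, 3.94 ± 1.45 for Mb, 0.36 ± 0.19 for Eno3 and 0.0019 ± 0.30 for Cox6a2, the 5 that did not pass. This contrast was among the results known when the genes were chosen, so nothing is read from the count.

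In the summed level aPD1 replicates 2 and 4 lay among the isotype control tumors. The count also depended on single tumors. It fell to 14 without aPD1 replicate 3, to 16 without isotype control replicate 3 and to 13 without isotype control replicate 4. With only these 2 groups in the model it was 12. The members' median log2 fold change was 2.86 without aPD1 replicate 3. Within lower-numbered tumors (2 and 3 tumors) no member was called and the median log2 fold change was 3.25, with 0.0115% of all genes called, and within higher-numbered tumors (3 and 3) 19 of 30 members were called, with a median of 6.19 and 13% of all genes called. The share of counts from ribosomal RNA genes averaged 9.92% (SD 4.70) over the 6 aPD1 tumors, against 5.599% (SD 2.74) over the 5 isotype control tumors. It ran from 4.57% to 17.9% and from 1.72% to 8.55%, and aPD1 replicate 3 had 4.57%. Its part in the result was not tested.

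Under blockade of the IL-2 receptor beta chain, 22 of 31 members were called lower in aPD1 + aIL2RB than in aPD1 tumors and none higher, where 27.4% of all genes were called, 13% higher and 14.5% lower. The median log2 fold change was −2.20 over the members and 0.0036 over all genes. All 6 calcium handling genes were called, with 4 of 7 thick filament, 4 of 5 thin filament, 4 of 7 titin, Z-disc and M-band and 4 of 6 energy genes. Ckm fell by 3.06 ± 0.81 on the log2 scale, Myh4 by 3.02 ± 0.87, Atp2a1 by 2.98 ± 0.81 and Acta1 by 2.49 ± 0.85. The log2 fold changes of Ttn (−1.41 ± 0.65), Neb (−1.32 ± 0.67), Myh1 (−1.63 ± 0.98), Myh2 (−1.69 ± 0.96) and Mb (−2.06 ± 0.97) did not pass. Without aPD1 replicate 3 the count was 6, and the members' median log2 fold change was −1.32. The count was 20 within the lower-numbered tumors, where 15.6% of all genes were called, and 1 within the higher-numbered tumors, where 22% were. The members' median log2 fold change was −2.35 in the former and −2.12 in the latter. Lists of other cell types moved in this comparison as well. Of 9 tested smooth muscle genes 6 were called lower (median log2 fold change −1.40), as were 5 of 7 leukocyte genes (−0.97), 2 of 6 nerve genes (−0.40), 2 of 10 adipocyte genes (−1.30), 2 of 5 cardiac genes (−0.23), 1 of 7 keratinocyte genes (−0.60) and 1 of 6 epithelial genes (−0.95). Of 8 fibroblast genes 3 were called higher and 3 lower (0.11), and of 6 endothelial genes 2 were called higher (0.067). The share of counts from ribosomal RNA genes averaged 7.14% (SD 2.77, 3.44% to 12.03%) in the 11 aPD1 + aIL2RB tumors, beside 9.92% in the 6 aPD1 tumors. The part of these lists and of this share in the result was not tested.

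**Figure D3:**
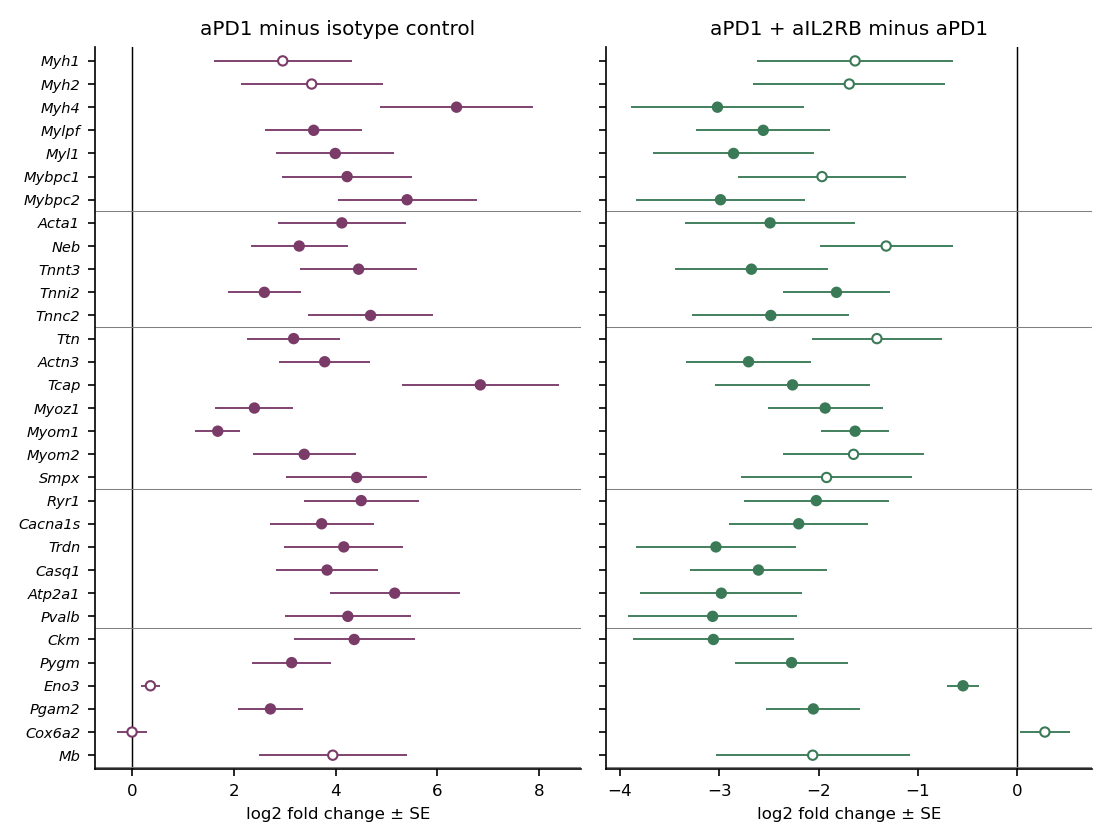
Log2 fold change ± SE of the 31 tested genes (rows, by role) for aPD1 against isotype control and for aPD1 + aIL2RB against aPD1, with filled points where the adjusted p was under 0.05. The 2 comparisons share the 6 aPD1 tumors; 26 points are filled on the left and 22 on the right.

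Fewer members were called between the other blockade groups and aPD1, and whether the blockades differed is given by their own comparisons. Between aPD1 + aGMCSF and aPD1, 3 members were called lower (Myom1, Pgam2 and Trdn) where 13.5% of all genes were called, 4.77% higher and 8.75% lower, and the median log2 fold change was −1.57. That count was 0 without aPD1 replicate 3, 1 without aPD1 replicate 6, 8 without aPD1 replicate 2 and 9 with the replicate set as a term. It was 1 with only these groups in the model, 0 of 31 within the lower-numbered tumors, where 0.155% of all genes were called, and 1 of 30 within the higher-numbered tumors, where 16.4% were. The members' median log2 fold change was −1.52 in the lower-numbered tumors, −1.745 in the higher-numbered tumors and −0.77 without aPD1 replicate 3. Between aPD1 + aGMCSF + aIL2RB and aPD1, 7 members were called lower (Actn3, Casq1, Eno3, Mylpf, Myom1, Pgam2 and Pygm) where 27.4% of all genes were called, 13.1% higher and 14.3% lower, with a median of −1.43. This count was 0 without aPD1 replicate 3 and 3 without aPD1 replicate 6. It rose to 11, 17 and 16 when aPD1 replicate 1, 2 or 4 was left out. Leaving out a double blockade tumor gave 15 for replicate 1, 17 for replicate 7, 3 for replicate 8 and 4 for replicate 10. With only these groups in the model the count was 2. It was 1 of 31 within the lower-numbered tumors, where 5.37% of all genes were called, and 1 of 30 within the higher-numbered tumors, where 29.6% were. The members' median log2 fold change was −1.46 in the former, −1.50 in the latter and −0.70 without aPD1 replicate 3. The 3 comparisons with aPD1 share its 6 tumors, and replicate 3 of that group alone held 1735 of summed CPM where its group mean was 573.

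Against isotype control, no member was called in aPD1 + aGMCSF tumors, where no gene at all was called, although 20 members had an unadjusted p under 0.05, and no other setting or tool called one. In aPD1 + aIL2RB tumors none was called with edgeR fitted over all groups, without further terms, where 3.2% of all genes were (1.7% higher and 1.51% lower), 5 had an unadjusted p under 0.05, and 1 was called with DESeq2 and 1 with only these groups in the model. In aPD1 + aGMCSF + aIL2RB tumors Myh4, Neb, Ryr1, Tcap and Ttn were called higher, 5 of 31 where 10.2% of all genes were called, 5.69% higher and 4.51% lower. Leaving out 1 isotype control tumor gave 8 for replicate 1, 0 for replicate 4 and 1 for each of replicates 2, 3 and 5. Leaving out 1 double blockade tumor gave 2 for replicate 7 and 3 for replicates 1 and 6. DESeq2 called 8. Within the lower-numbered and within the higher-numbered tumors the count was 0, where 1.94% and 11.4% of all genes were called. The members' median log2 fold change was 1.59 in the former and 4.33 in the latter, beside 2.395 over all tumors. Among the 3 groups given blocking antibodies no member was called in any pair by edgeR or DESeq2, with 1, 0 and 0 members at an unadjusted p under 0.05. The members' median log2 fold change was −0.63 for aPD1 + aIL2RB over aPD1 + aGMCSF, where 1.52% of all genes were called (0.626% higher and 0.898% lower). It was 0.026 for aPD1 + aGMCSF + aIL2RB over aPD1 + aGMCSF, where 2.13% were called (0.98% higher and 1.15% lower), and 0.85 over aPD1 + aIL2RB, where 0.00591% were called (0.00591% higher and 0% lower).

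Along the replicate numbers, of 31 members, 10 were called lower and 1 higher in the higher-numbered tumors, a share of 35.5% where 25.1% of all genes were called, 13.6% higher and 11.5% lower. Those lower were Mb, Myh1, Myh2, Mybpc1, Neb, Smpx, Cacna1s, Ttn, Ryr1 and Myom1, and the one higher was Cox6a2. Leaving out each of the 42 tumors in turn lost the call of Ryr1 in 23 fits and that of Smpx in 19, and the other 9 calls in none. The division was drawn from these same tumors, so these values are a description and nothing is read from the share. The log2 differences were −3.56 ± 0.58 for Mb, −3.38 ± 0.54 for Myh1, −3.19 ± 0.55 for Myh2 and −2.44 ± 0.49 for Mybpc1, the slow-type myosin-binding protein C. Of all 31, 27 differences were negative, with a median of −0.76 beside −0.0051 over all genes. The other 20 did not pass. The 5 named next were picked after their values were seen, from the members that lay near 0. Other members near 0 are not named. Myh4 differed by 0.059 ± 0.58, Mybpc2, the fast-type myosin-binding protein C, by −0.15 ± 0.56, Actn3 by 0.10 ± 0.41, Pvalb by −0.22 ± 0.56 and Pygm by −0.16 ± 0.37. Acta1, which all fibers use, differed by −1.28 ± 0.53. The 5 named genes do not stand for all genes of fast fibers. All 5 thin filament genes, among them the fast troponins, had negative differences, from −1.64 to −0.50 with a median of −0.76. Of the 7 thick filament genes 6 were negative and 1 positive, with a median of −1.18.

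**Figure D4:**
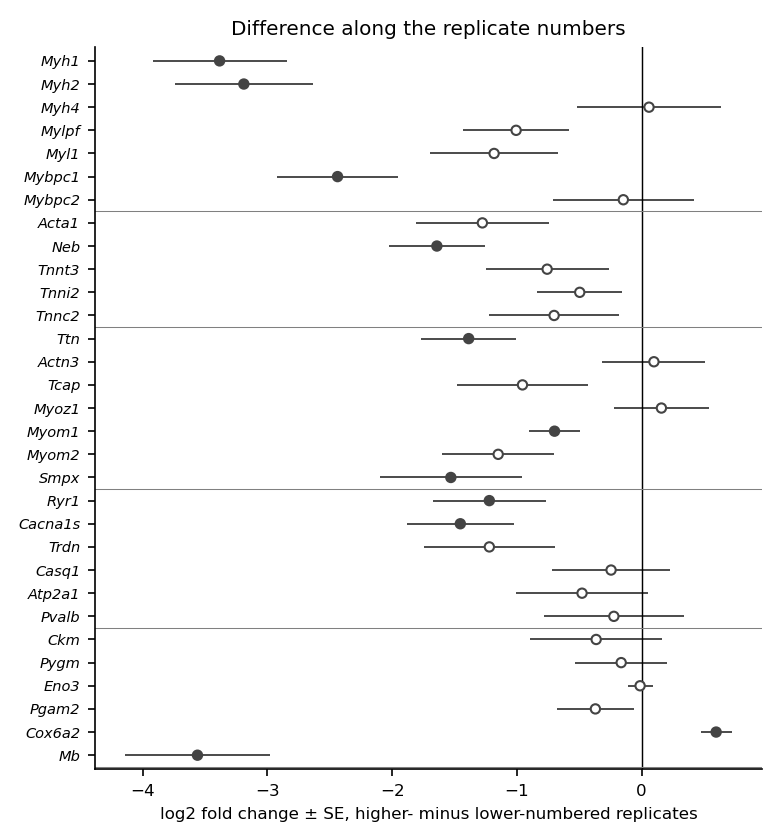
Log2 difference ± SE between higher- and lower-numbered replicates, with treatment group in the model, for the 31 tested genes (rows, by role), with filled points where the adjusted p was under 0.05. Mb, Myh1 and Myh2 lie below −3, whereas Myh4 and Mybpc2 lie near 0.

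The 3 fast myosin genes, which lie side by side on chromosome 11 and have exons of similar total length, are given in more detail. Myh2 lies at 67171027 to 67197517, Myh1 at 67200052 to 67224575 and Myh4 at 67238029 to 67260446, all on the plus strand of GRCm38, with 7137, 6353 and 6016 bases of exon. Myh1 had a median of 17.5 CPM (1.80 to 105) in lower-numbered and of 0.39 CPM (0 to 34.4) in higher-numbered tumors. Myh2 had a median of 4.79 CPM (0.89 to 37.5) in lower-numbered and of 0.043 CPM (0 to 10.5) in higher-numbered tumors, where it was at 0 in 10 of 20. Myh4 had a median of 10.9 CPM (0.96 to 222) in lower-numbered and of 6.02 CPM (0 to 121) in higher-numbered tumors. All 3 genes were over 0.5 CPM in all 22 lower-numbered tumors. In the 20 higher-numbered tumors Myh1 was at 0 in 4 and over 0.5 CPM in 8, Myh2 at 0 in 10 and over 0.5 CPM in 4, and Myh4 at 0 in 5 and over 0.5 CPM in 12.

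The share of Myh4 among the 3 myosins, each taken per exon length, is given as a description. In the 31 tumors with at least 100 counts of the 3 genes together, a minimum chosen after the values were seen, it ran from 13.8% to 72.9% in 21 lower-numbered and from 72.5% to 99.3% in 10 higher-numbered tumors. Of these 10, however, only 3 had 100 counts of Myh1 and Myh2 together, so that the other 7 reached the minimum only through Myh4, and the minimum itself favors a high share there. The lowest shares among the 10 were those of aPD1 + aIL2RB replicate 11 (72.5%) and aPD1 replicate 6 (74.6%), which were also the only higher-numbered tumors with more than 0.5 CPM of Mb. At the other extreme, aPD1 replicate 5 had 1241 counts of Myh4, 9.2 of Myh1 and 0 of Myh2, and aPD1 + aGMCSF + aIL2RB replicate 7 had 1641, 23.5 and 2.2. In aPD1 replicate 3, a lower-numbered tumor, the counts were 4426, 2085 and 747. In the 7 higher-numbered tumors below the minimum with any count of the 3 genes, the share ran from 0% to 100% on at most 60 counts. Isotype control replicates 3 to 5 had 0 counts of all 3 genes, and the 1 lower-numbered tumor below the minimum, aPD1 replicate 2, had a share of 25.4%. The counts of these neighbors are not whole in 21 to 26 tumors, since reads that fit more than 1 of them were divided, and the error this adds to a share is not known.

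**Figure D5:**
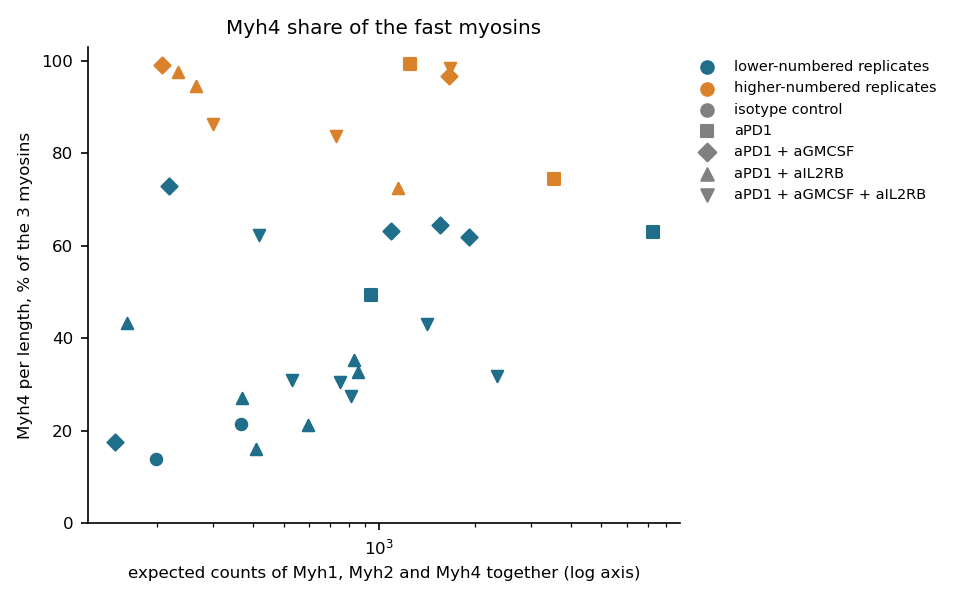
Share of Myh4 among Myh1, Myh2 and Myh4 per exon length (vertical, %) against the expected counts of the 3 genes together (horizontal, log axis) in the 31 tumors with at least 100 such counts, colored by replicate set and shaped by group. Higher-numbered tumors lie at 72.5% to 99.3%, and lower-numbered tumors at 13.8% to 72.9%; 7 of the higher-numbered tumors reached the minimum only through Myh4, and the 11 tumors below it are not shown.

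The windows before the start sites of these genes are shown with that of Acta1, because Myh1 and Myh2 were called lower in higher-numbered tumors and Myh4, of the same cluster, did not pass the threshold. Each line gives the 250 bases before the start that RefSeq lists, 5′ to 3′ on the strand of the gene (RefSeq, GRCm38.p6). Capitals mark an E-box (CANNTG), a MEF2 box, a CArG box or a TATA box (TATAAA), searched on both strands. A TATA box on the reverse strand falls inside the MEF2 box of Myh1 and of Myh4.
Myh1, chr11:67199852-67200101, plus strand: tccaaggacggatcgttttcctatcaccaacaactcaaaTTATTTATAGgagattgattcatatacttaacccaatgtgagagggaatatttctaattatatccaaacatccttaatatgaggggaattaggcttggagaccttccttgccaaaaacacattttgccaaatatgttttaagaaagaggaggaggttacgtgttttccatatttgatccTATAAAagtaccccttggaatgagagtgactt
Myh2, chr11:67170777-67171026, plus strand: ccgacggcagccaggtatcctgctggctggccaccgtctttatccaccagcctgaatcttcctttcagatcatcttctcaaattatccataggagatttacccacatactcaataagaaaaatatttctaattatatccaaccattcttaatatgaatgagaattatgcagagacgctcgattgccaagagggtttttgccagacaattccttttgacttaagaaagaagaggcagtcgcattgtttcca
Myh4, chr11:67237562-67237811, plus strand: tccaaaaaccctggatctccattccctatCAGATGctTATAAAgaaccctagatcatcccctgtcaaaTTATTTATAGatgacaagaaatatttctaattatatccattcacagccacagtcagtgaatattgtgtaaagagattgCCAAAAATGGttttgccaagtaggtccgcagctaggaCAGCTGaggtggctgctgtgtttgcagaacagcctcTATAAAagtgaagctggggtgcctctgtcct
Acta1, chr8:123894776-123895025, minus strand: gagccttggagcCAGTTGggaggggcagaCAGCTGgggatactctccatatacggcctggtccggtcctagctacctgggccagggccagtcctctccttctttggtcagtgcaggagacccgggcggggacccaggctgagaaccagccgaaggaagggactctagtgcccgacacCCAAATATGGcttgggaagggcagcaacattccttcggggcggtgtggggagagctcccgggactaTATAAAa
Myh1 and Myh4 hold the same MEF2 box letters, TTATTTATAG, at 211 to 202 and at 182 to 173 bases before the start. Myh4 alone of the 3 myosins holds E-boxes (CAGATG and CAGCTG) and a CArG box (CCAAAAATGG, 104 to 95 bases before the start) in this stretch, and Acta1 has CCAAATATGG at 73 to 64. Over 32851 promoter windows of 300 bases, 3.19% held a MEF2 box, 1.63% a CArG box, 13.6% a TATA box and 72.3% an E-box. Of the 22 members with a window, 5, 3, 5 and 17 held them in their first window, and the other 10 members had no window. A match describes letters only.

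Other sarcomere genes outside the 32 were also called lower in higher-numbered tumors. Of 22 tested genes of a further list of sarcomere and Z-disc genes, 15 were called lower and none higher in the higher-numbered tumors. Of all genes, 13.6% were called higher and 11.5% lower there. These shares apply to every list count along the replicate numbers below. For list counts of aPD1 against isotype control they were 6.17% higher and 2.54% lower. The most abundant genes of this list were Flnc (filamin C, mean 206 CPM), which other cells of a tumor also express, and Fbxo32 (23.3 CPM). Xirp2, an actin-binding repeat protein, averaged 24.7 CPM in lower-numbered and 2.91 CPM in higher-numbered tumors, a log2 difference of −3.14 ± 0.48. Csrp3, the muscle LIM protein, averaged 1.55 and 0.12 CPM, and Des, the muscle intermediate filament desmin, 17.1 and 7.37 CPM. Between aPD1 and isotype control 9 of the 22 were called higher, with a median log2 fold change of 2.63. Between aPD1 + aIL2RB and aPD1, 5 were called lower and none higher.

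In the slow fiber and shared sarcomere list, 4 of 10 tested genes were lower and 2 higher along the replicate numbers, and 1 of 10, Myh7, the slow myosin, was called higher in aPD1. Its leading genes Tpm3 (564 CPM) and Tpm1 (452 CPM) are tropomyosins that most cells use. Myh7 reached 15.2 CPM in aPD1 replicate 3, against 222 CPM of Myh4 in that tumor. Of 12 further excitation-contraction genes, led by Asph (174 CPM) and Cacna2d1 (113 CPM), 2 were called higher in aPD1 and 3 lower along the replicate numbers. Of 11 further energy genes, led by Pfkm (83.7 CPM) and Phka1 (36.7 CPM), 3 were called higher in aPD1, and 1 was higher and 2 were lower along the replicate numbers. Of the 68 genes in these 4 muscle lists, 47 had their highest level in aPD1 replicate 3. Between aPD1 + aIL2RB and aPD1, 4 slow fiber and shared sarcomere genes were called lower and none higher. In the same comparison 2 excitation-contraction genes were called higher and 3 lower, and 2 energy genes higher and 4 lower. Of all genes, 13% were called higher and 14.5% lower there.

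Of 19 genes of precursors, regeneration and junctions, 8 passed the filter, led by Ncam1 (48.9 CPM) and Chrna1 (15.4 CPM), which are not limited to precursors. Pax7, the satellite cell factor, reached at most 14 counts and Myod1 at most 20 counts in any tumor. Myog and Myf6, which act later in muscle differentiation, reached 37 counts (1.86 CPM) and 53 counts (2.66 CPM), both in aPD1 replicate 3. The embryonic and perinatal myosins Myh3 and Myh8 reached 3.67 and 1.31 CPM. Between aPD1 and isotype control 1 of the 8 was called, Des, and along the replicate numbers 4 were lower and 1 higher. Des, which is 1 of these 4, is also counted in the sarcomere and Z-disc list. Between aPD1 + aIL2RB and aPD1, 2 of the 8 were called lower and 1 higher.

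Outside the members, genes whose log2 CPM followed the muscle score most closely over the 42 tumors were Eef1a2 (r = 0.94), Scn4a (0.94), Cmya5 (0.94), Des (0.92), Mypn (0.89), Klhl41 (0.88), Myot (0.88), Pdlim3 (0.88) and Trim54 (0.88). Eef1a2 is the elongation factor of muscle and neurons, and Scn4a the sodium channel of skeletal muscle. All of these had their highest value in aPD1 replicate 3. Their mean levels ran from 0.27 to 12.4 CPM.

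Markers of other tissues found under the skin were set beside the members. Of 10 tested adipocyte genes, led by Fabp4 (21.3 CPM) and Lipe (8.70 CPM), 8 were called higher in the higher-numbered tumors, opposite to Myh1 and Mb, and none between aPD1 and isotype control. The median r of these 10 genes with the muscle score was −0.16. The summed level of the 11 listed genes ran from 18.4 to 78.0 CPM in isotype control and from 17.6 to 89.5 CPM in aPD1 tumors. Of 6 brown adipocyte genes 1 passed the filter, Dio2 (1.81 CPM), which was lower along the replicate numbers, and the next most abundant was Cox8b (0.079 CPM). Ucp1, which defines brown fat, reached at most 4 counts. Adipocyte levels moved with the same replicate sets as Myh1 and Myh2, and their part in the result was not tested.

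Of 7 tested keratinocyte genes, led by Krt10 (3.58 CPM) and Krt14 (0.99 CPM), none was called along the replicate numbers and 1, Krt1, was higher in aPD1. The 12 of them in the table summed to 4.64 to 7.06 CPM in isotype control and 4.28 to 40.7 CPM in aPD1 tumors. Of 6 nerve genes, led by Mbp (9.71 CPM) and Prx (3.53 CPM), none was called in either comparison. Of 5 tested cardiac genes, led by Tnnt2 (11.2 CPM) and Myl4 (0.68 CPM), none was called in aPD1 and 1 was higher along the replicate numbers. Nppa and Myh6, which define heart muscle, reached at most 2 and 8 counts. Of 9 tested smooth muscle genes, led by Smtn (90.5 CPM) and Acta2 (20.2 CPM), 4 were called higher in aPD1 than in isotype control and 2 higher and 1 lower along the replicate numbers, and the highest Acta2 was in aPD1 replicate 4, a tumor with almost no skeletal actin. The 1 called lower, Synpo2, was also among the 4 higher in aPD1 and is counted in the sarcomere and Z-disc list too.

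Among lists of the tumor itself, 3 of 8 fibroblast genes were called higher and 1 lower in aPD1 and 4 were lower along the replicate numbers, with Col3a1 (2841 CPM) and Dcn (714 CPM) as the most abundant. Of 6 endothelial genes, led by Cdh5 (65.8 CPM) and Pecam1 (56.5 CPM), 2 were called higher in aPD1 and none along the replicate numbers. Of 7 leukocyte genes, led by Ptprc (177 CPM) and Adgre1 (124 CPM), 3 were called higher in aPD1 and 2 lower along the replicate numbers. Of 6 epithelial genes chosen for the carcinoma line, 5 were higher in the higher-numbered tumors, none was called between aPD1 and isotype control, and Cdh1 (3.62 CPM) and Krt19 (1.69 CPM) led the list. Krt8, a keratin of simple epithelia, averaged 0.091 CPM in lower-numbered and 2.67 CPM in higher-numbered tumors, and Epcam 0.16 and 0.81 CPM, so that Krt8 and Epcam were near 0 in the lower-numbered tumors, whereas Cdh1 averaged 3.25 and 4.02 CPM. The part of these lists in the muscle result was not tested.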

How the data were processed

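The data are RNA-seq counts of 42 tumors. The authors selected poly(A) RNA, sequenced 100 bp paired reads, aligned them with bowtie 1.2.3 to transcriptomes of the mouse founder strains (GRCm38, per the labels) and deposited expected counts per gene from gbrs, summed over haplotypes and not normalized, so that reads shared by related genes were divided (15.2% of values are not whole). Counts were rounded and fitted with edgeR 4.0.16 in R 4.3.3 over all tumors and 5 groups, with filterByExpr (minimum count 10, minimum total 15), TMM scaling and Benjamini-Hochberg adjustment over the 16932 genes of each of 10 pairs of groups. DESeq2 1.42.0 was an alternative. CPM are TMM scaled, and log2 CPM has a prior count of 2. The procedure was tested on simulated data. Symbols and exon lengths come from GENCODE vM21 (26629 of 26811 identifiers matched). The labels call the samples biological replicates, and no 2 tumors of a group were as close as copies of 1 library (chi-square per gene at least 5.38 over 171 pairs).

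The members, the lists of other cell types and the division by replicate number were chosen with earlier results of these data known. All members are named by role. Those given in detail are the most abundant of each role and the fast myosins, with the 10 genes most like their score (1 of them is not reported here) and the 2 most abundant genes of each list. Further genes were named after their values were seen. Alternatives were other scalings and filters, DESeq2, only the groups compared, a replicate block, the replicate set as a term and leaving out each tumor, and for the score a median, a prior count of 0.5 and leaving out the 3 myosins. Fits within the lower- and the higher-numbered tumors were added after seeing the data. Sequence windows are from RefSeq (GRCm38.p6) and matched 22 of 32 members by symbol.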

Additional observations from a re-analysis of the deposited data

Results flagged for a closer look

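In 4 cases the log2 CPM of a member (prior count of 2) in 1 tumor stood far from the rest of its group, each time on few counts. Tcap was −2.36 in isotype control replicate 1 (2 counts), with the other 4 tumors at −3.31. Smpx was −1.82 in isotype control replicate 2 (4 counts), with the others at −3.31. Trdn was −0.073 in isotype control replicate 1 (18 counts), with the others between −3.31 and −2.38. Sln was −2.17 in aPD1 + aGMCSF replicate 2 (2 counts), with the others at −3.31. These come from 98 checks of a gene or the score in a group of 5 to 9 tumors, and chance alone marks about 1 in 20 such groups where values are spread normally. That rate does not hold for Tcap, Smpx and Sln. There all other tumors of the group tied at a count of 0, so that any count in a single tumor is marked.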

How the results depend on the processing

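Other scalings (library size alone, size factors of DESeq2) and a looser filter kept every count of members called within 1.5 times, and no named fold change reversed. The counts rest on the following choices, and the cause was not tested. With DESeq2 the count was 1 for aPD1 + aIL2RB and 8 for aPD1 + aGMCSF + aIL2RB against isotype control. With only the groups compared in the model it was 12 for aPD1 against isotype control, 1 for aPD1 + aGMCSF and 2 for aPD1 + aGMCSF + aIL2RB against aPD1, and 1 for aPD1 + aIL2RB against isotype control. With the replicate set as a term it was 9 for aPD1 + aGMCSF against aPD1. Within lower-numbered tumors, a choice made after seeing the data, it was 0 for aPD1 (0.0115% of all genes called) and 0 for aPD1 + aGMCSF + aIL2RB (1.94%) against isotype control, and 0 for aPD1 + aGMCSF (0.155%) and 1 for aPD1 + aGMCSF + aIL2RB (5.37%) against aPD1. Within higher-numbered tumors it was 1 of 30 for each of aPD1 + aGMCSF (16.4% of all genes called), aPD1 + aIL2RB (22%) and aPD1 + aGMCSF + aIL2RB (29.6%) against aPD1, below those shares, and 0 for aPD1 + aGMCSF + aIL2RB against isotype control (11.4%). In the same order, the members' median log2 fold changes against aPD1 were −1.745, −2.12 and −1.50 in higher-numbered tumors. They were −1.52, −2.35 and −1.46 in lower-numbered tumors and −1.57, −2.20 and −1.43 over all tumors. Leaving out 1 tumor gave 13 to 27 members for aPD1 against isotype control, 0 to 8 for aPD1 + aGMCSF, 6 to 24 for aPD1 + aIL2RB and 0 to 17 for aPD1 + aGMCSF + aIL2RB against aPD1, 0 to 8 for aPD1 + aGMCSF + aIL2RB against isotype control and 9 to 16 between the replicate sets.

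With the replicate number as a block the counts were 1 for aPD1 + aGMCSF, 12 for aPD1 + aIL2RB and 4 for aPD1 + aGMCSF + aIL2RB against aPD1, and 3 for aPD1 + aIL2RB and 15 for aPD1 + aGMCSF + aIL2RB against isotype control. Deviations from the group means correlated at −0.17 to 0.19 (median 0.035) over 67 pairs of tumors with the same number. Of these pairs, 16 were over 0.1. Such pairs often fall in the same replicate set, so these low values do not show that tumors with the same number share nothing else. The mean score of each group kept within 1 SD under every alternative. Depth limits the genes near 0 most, such as Sln, Mb and Myh2.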
